A study of Homo sapiens with 12 samples.

Results

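A set of 10 genes around haem oxygenase 1 were followed through 12 RNA sequencing libraries of 2 human tumour cell lines. They are HMOX1, the regulators NFE2L2, KEAP1 and BACH1, the NRF2 targets NQO1, GCLM, GCLC, SRXN1 and TXNRD1, and the ferritin heavy chain gene FTH1. HMOX1 was chosen by its measured value, a high level after siLARP4B in both lines, so its values are given as a description with no test. The other 9 genes were chosen by their known roles in the same pathway, with earlier results of these libraries known. The 10 genes are among 26415 gene symbols at a single locus on chromosomes 1 to 22 and X, and all 10 were among the 15668 genes with enough fragments to test.

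PC3 is a prostate adenocarcinoma line and MG63 an osteosarcoma line, both labelled wild type in genotype. Each line received 10 nM of 1 of 3 siRNA reagents with Lipofectamine RNAiMAX: a non-targeting control (siControl), siRNA against LARP4A (siLARP4A) or siRNA against LARP4B (siLARP4B). Poly(A) RNA was taken 72 h later, and the control cells had the same transfection. The 6 groups hold 2 biological replicates each per the series' design text. The p-values measure the spread between these samples only. The labels give neither the siRNA sequences nor their number per target, and untransfected cells are not analysed here.

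NRF2, the protein of NFE2L2, is a transcription factor that raises detoxifying and antioxidant genes. KEAP1 holds NRF2 in the cytoplasm and passes it to a CUL3 ubiquitin ligase, until electrophiles or oxidants modify KEAP1. BACH1 is a haem-binding repressor that occupies many of the same antioxidant response elements with small MAF proteins, and HMOX1 is among its best known targets. HMOX1 splits haem into biliverdin, carbon monoxide and iron, and ferritin stores iron. NRF2 and KEAP1 are largely controlled as proteins, which RNA sequencing does not measure. In bulk RNA, fewer cells of a type and less RNA per cell cannot be told apart.

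Promoter sequences were read for 3 members that moved in different directions after siLARP4B, because all 3 hold the core letters of the antioxidant response element near a start site. RefSeq promoter windows, on GRCh38.p14, run from 250 bases before to 50 bases after a start. The search was for TGACNNNGC on both strands, and 4687 of 35116 windows (13.3%) held it. Of the 13 windows of 8 members, 4 held it. No window was found for HMOX1 and FTH1. The sequences below are the 150 bases before a start, 5′ to 3′ on the gene's strand, with each match in capitals. They cover chr1:93909431-93909580 for GCLM (minus strand), chr12:104286882-104287031 for TXNRD1 (plus strand) and chr19:10502772-10502921 for KEAP1 (minus strand).
GCLM: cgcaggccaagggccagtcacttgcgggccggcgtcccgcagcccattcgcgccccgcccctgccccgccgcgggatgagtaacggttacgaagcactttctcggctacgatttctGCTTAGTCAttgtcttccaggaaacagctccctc
TXNRD1: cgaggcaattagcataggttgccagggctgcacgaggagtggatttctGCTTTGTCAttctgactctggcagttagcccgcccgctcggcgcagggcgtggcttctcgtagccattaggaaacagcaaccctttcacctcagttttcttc
KEAP1: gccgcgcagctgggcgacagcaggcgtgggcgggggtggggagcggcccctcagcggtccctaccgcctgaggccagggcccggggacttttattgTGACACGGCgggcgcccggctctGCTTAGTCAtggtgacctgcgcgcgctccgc
The GCLM match begins 34 bases before the start and reads GCTTAGTCA, the motif on the opposite strand. The TXNRD1 match begins 102 bases before the start, and a TXNRD1 window at another start holds 2 more. KEAP1 holds 2 matches, 54 and 31 bases before the start, and the one nearer the start has the same 9 letters as that of GCLM. The KEAP1 start shown belongs to the model with fewer fragments. A match is a description of letters and shows no binding.

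Library totals were 16950119 to 24864977 fragments, and replicate libraries differed by more than counting noise, with a chi-square per degree of freedom over genes of 1.64 to 2.58 in 4 groups, 6.32 in PC3 siLARP4A and 5.05 in MG63 siLARP4B. The targeted transcripts were low in the libraries labelled for them. LARP4B was at 18.4% of siControl after siLARP4B in PC3 and 30.5% in MG63, and LARP4, the symbol of LARP4A, was at 12.6% and 25.8% after siLARP4A. After siLARP4B, LARP4 was at 133% of siControl in MG63, a rise of 0.44 on the log2 scale (adjusted p 5.2e-06 by edgeR, SE 0.059), and at 98.3% in PC3 (edgeR adjusted p 0.34). The markers EPCAM, CDH1, KRT8, KRT18 and KRT19 summed to 796 to 1042 FPKM (fragments scaled to model length and library total) in PC3 libraries. In MG63 that sum was 54.6 to 72.2 FPKM, and a mesenchymal and bone list summed to 5398 to 5893 FPKM. RUNX2, a bone lineage marker in that list, stayed under 1 FPKM in both lines. Of 5 listed macrophage markers, 4 were read. Their sum in PC3 was 15.5 to 16.3 FPKM in siControl, 18.9 to 21.1 after siLARP4A and 12.3 in both siLARP4B libraries, and in MG63 it was 30.3 to 32.6, 21.6 to 22.5 and 15.2 to 15.6 FPKM. The sum was mostly CD68, a lysosomal protein that other cells also make. CD14 was at 0.135 to 0.191 FPKM in PC3 siControl and 0.286 to 0.475 after siLARP4B, and at 1.95 to 2.48 against 0.991 to 1.16 in MG63. CD163 was at 0 in every library and CSF1R at most at 0.143 FPKM. The part of such cells in the HMOX1 level was not tested. Erythroid markers summed to at most 0.222 FPKM in any library.

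HMOX1 lies at chr22:35381096-35394207 on the plus strand of hg38, with 1 transcript model. Like the other spans given here, this one covers the exons and introns of the model used. In PC3 its level was 11.8 and 11.9 FPKM in the siControl libraries, 17.9 and 17.7 after siLARP4A, and 49.4 and 50.9 after siLARP4B. In MG63 it was 5.97 and 4.95 FPKM in siControl, 7.70 and 7.31 after siLARP4A, and 27.0 and 26.4 after siLARP4B. The siLARP4B libraries were the highest of their line, the siLARP4A libraries came between, and no group overlapped another. The order of the 6 groups ran from MG63 siControl through MG63 siLARP4A, PC3 siControl, PC3 siLARP4A and MG63 siLARP4B to PC3 siLARP4B, and no neighbours overlapped. The log2 fold change against siControl was 2.04 (SE 0.075) in PC3 and 2.32 (SE 0.089) in MG63 after siLARP4B. After siLARP4A it was 0.58 (SE 0.081) and 0.48 (SE 0.108). These values rest on 147 to 1470 fragments a library. HMOX1 ranked 187 from the highest log2 fold change of 15668 genes after siLARP4B in PC3, and 137 in MG63. Among the 9847 genes with a mean of at least 5 FPKM in a group, it ranked 38 and 27. HMOX1 was chosen by its level after siLARP4B, so these SEs and ranks are a description and no test.

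**Figure D1:**
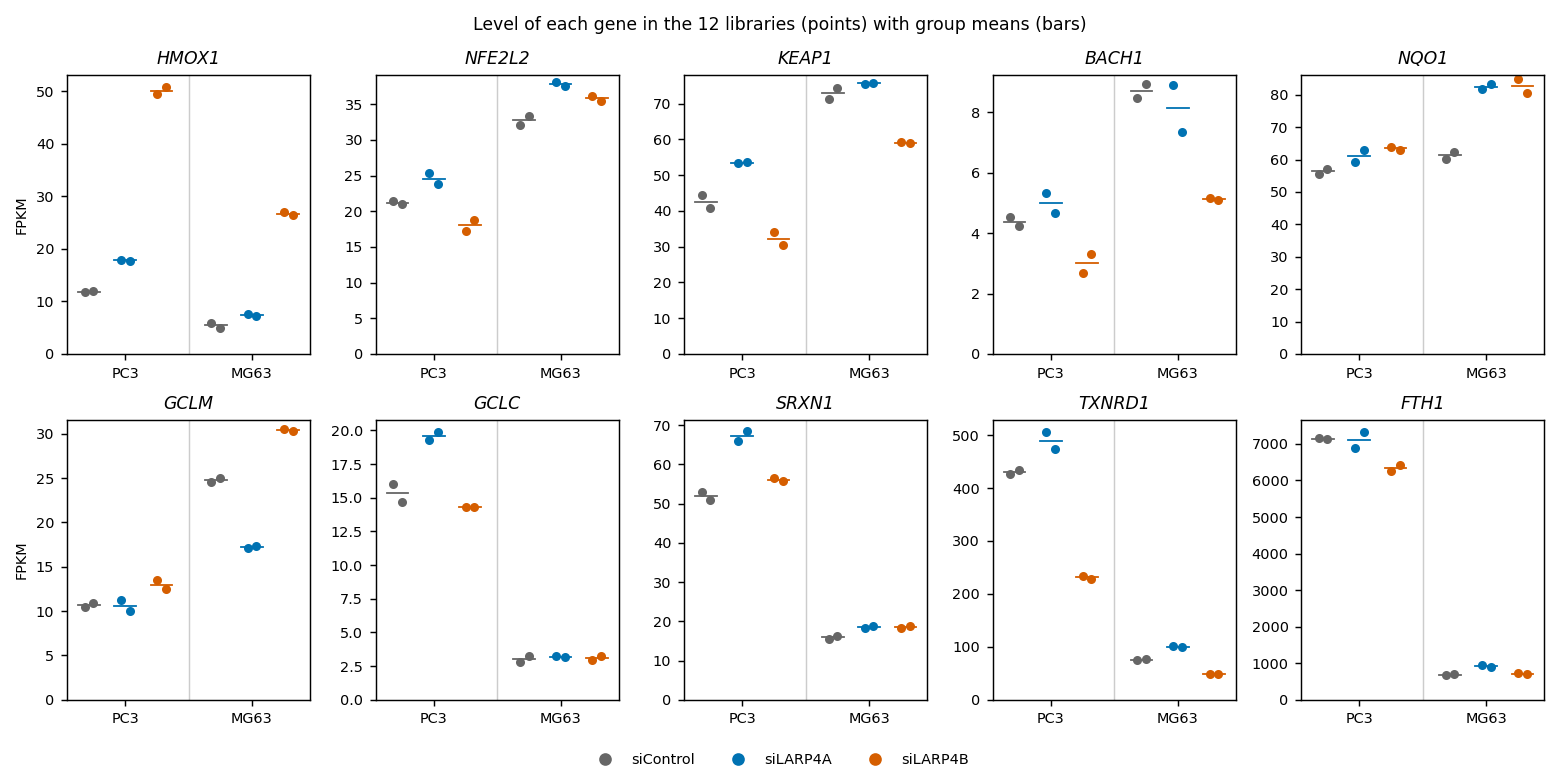
Level of the 10 genes in each of the 12 libraries (points, FPKM on linear axes from 0, a scale per gene), with group means as bars, PC3 on the left and MG63 on the right of each panel. HMOX1 is highest in the siLARP4B libraries of both lines, at 49.4 to 50.9 and 26.4 to 27.0 FPKM, where BACH1, KEAP1 and TXNRD1 are at their lowest for that line.

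After siLARP4B, the high HMOX1 level came with lower BACH1, KEAP1 and TXNRD1 and with higher GCLM and NQO1 in both lines. Of the 9 members other than HMOX1, 2 rose and 5 fell in PC3, where 21.3% of all genes tested rose and 23.4% fell. In MG63, 4 rose and 3 fell, beside 18.8% and 16.3% of all genes. The calls are from edgeR's quasi-likelihood test at a Benjamini-Hochberg adjusted p under 0.05, fitted over all 15668 genes. The median log2 fold change of the 9 was -0.22 in PC3 and 0.08 in MG63, and the median of all genes was 0.00 in both. Upper-quartile scaling of the libraries raised the share of calls that were higher in PC3 from 47.7% to 60.6%, and the median of all genes from 0.003 to 0.083. With both lines required, 2 members rose (NQO1 and GCLM) beside 7.49% of all genes. Another 3 fell in both (KEAP1, BACH1 and TXNRD1), beside 8.88% of all genes, and 1, NFE2L2, had opposite calls. Of these calls, that of NQO1 in PC3 held in 13 of 23 alternative analyses and that of NFE2L2 in MG63 in 6 of 22, while those of BACH1, KEAP1, TXNRD1 and GCLM held in all of them in both lines.

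BACH1, the repressor of HMOX1, lies at chr21:29299375-29346148 on the plus strand. Its level in PC3 was 4.54 and 4.23 FPKM in siControl, 5.33 and 4.68 after siLARP4A, and 2.69 and 3.31 after siLARP4B. The MG63 libraries held 8.49 and 8.94 FPKM in siControl, 8.90 and 7.36 after siLARP4A, and 5.16 and 5.09 after siLARP4B. In each line both siLARP4B libraries lay below the other 4. BACH1 fell by 0.59 on the log2 scale in PC3 (adjusted p 1.2e-04 by edgeR, SE 0.109) and by 0.74 in MG63 (adjusted p 2.0e-06 by edgeR, SE 0.093) after siLARP4B. The 3 BACH1 transcript models gave log2 ratios between -0.56 and -0.51 in PC3, and between -0.77 and -0.60 in MG63. After siLARP4A its log2 fold change was 0.19 in PC3 (edgeR adjusted p 0.16) and -0.08 in MG63 (edgeR adjusted p 0.54). Without PC3 siLARP4A replicate 2 the PC3 value was 0.30 (edgeR adjusted p 0.028).

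**Figure D2:**
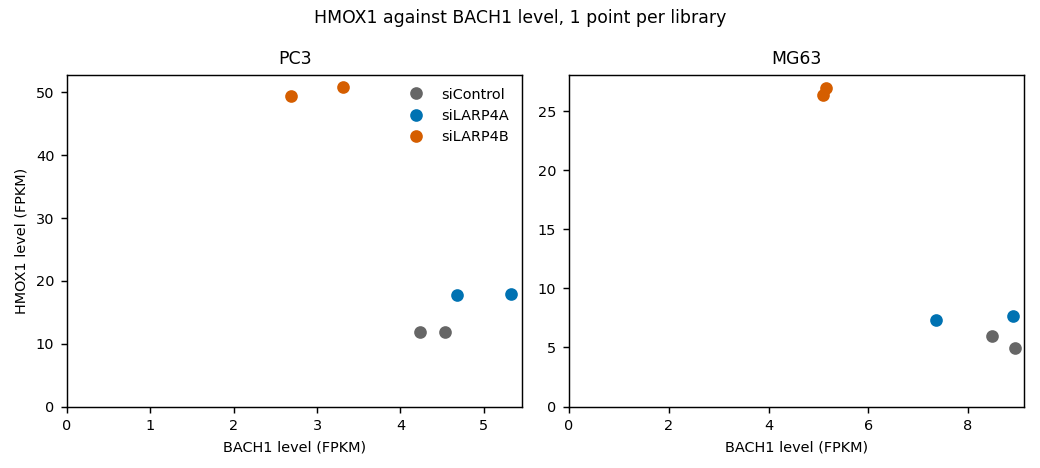
HMOX1 level against BACH1 level (both FPKM, linear axes from 0), 1 point per library, PC3 left and MG63 right. The 2 siLARP4B libraries of each line sit apart at low BACH1 and high HMOX1, while the siLARP4A libraries sit at the BACH1 level of siControl or near it, with HMOX1 of 17.7 to 17.9 FPKM in PC3 and 7.31 to 7.70 in MG63.

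KEAP1, the adaptor that targets NRF2 for degradation, lies at chr19:10486125-10503356 on the minus strand. Its PC3 level was 44.5 and 40.8 FPKM in siControl, 53.3 and 53.8 after siLARP4A, and 34.1 and 30.4 after siLARP4B. In MG63 it was 71.4 and 74.4 FPKM in siControl, 75.5 and 75.9 after siLARP4A, and 59.4 and 58.9 after siLARP4B. The siLARP4B libraries were below siControl in both lines, and in PC3 the siLARP4A libraries were above it by a clear gap. KEAP1 fell by 0.44 on the log2 scale after siLARP4B in PC3 (adjusted p 1.9e-06 by edgeR, SE 0.059) and by 0.27 in MG63 (adjusted p 4.7e-04 by edgeR, SE 0.055). After siLARP4A it rose by 0.32 in PC3 (adjusted p 1.2e-04 by edgeR, SE 0.057), and its log2 fold change in MG63 was 0.07 (edgeR adjusted p 0.36).

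NFE2L2, the gene of NRF2, lies at chr2:177230309-177264727 on the minus strand. In PC3 it was at 21.4 and 21.0 FPKM in siControl, 25.3 and 23.8 after siLARP4A, and 17.2 and 18.8 after siLARP4B. The MG63 level was 32.1 and 33.4 FPKM in siControl, 38.1 and 37.5 after siLARP4A, and 36.1 and 35.5 after siLARP4B. After siLARP4A both libraries lay above siControl in both lines, and after siLARP4B they lay below it in PC3 and above it in MG63. The log2 fold change after siLARP4B was -0.28 in PC3 (adjusted p 1.0e-03 by edgeR, SE 0.065) and 0.15 in MG63 (adjusted p 0.043 by edgeR, SE 0.058). The MG63 call was lost with DESeq2 (adjusted p 0.10), with limma, with upper-quartile scaling and without any 1 of 10 of the 12 libraries, the exceptions being the PC3 siLARP4A libraries. The PC3 call was lost without siLARP4B replicate 1, at -0.18 (edgeR adjusted p 0.086). After siLARP4A NFE2L2 rose by 0.20 in PC3 (edgeR adjusted p 0.013) and 0.23 in MG63 (edgeR adjusted p 0.0057). These calls were lost, with edgeR adjusted p of 0.056 and 0.051, without PC3 siControl replicate 2 or PC3 siLARP4A replicate 1. In MG63 they were lost, at 0.086 and 0.061, without siControl replicate 1 or siLARP4A replicate 1.

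**Figure D3:**
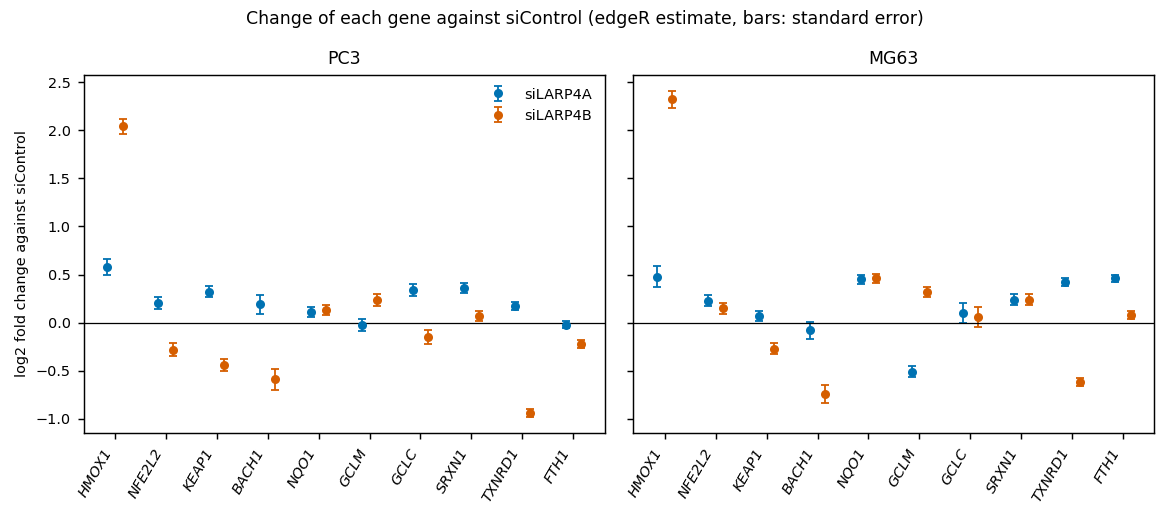
Log2 fold change against siControl of the 10 genes in PC3 (left) and MG63 (right), with the standard error of the edgeR estimate as bars, siLARP4A in blue and siLARP4B in orange. HMOX1 stands at 2.04 and 2.32 after siLARP4B, and TXNRD1 is the lowest in PC3 at -0.94, with BACH1 the lowest in MG63 at -0.74.

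GCLM and GCLC encode the modifier and catalytic subunits of glutamate-cysteine ligase, which makes the first step of glutathione synthesis. GCLM lies at chr1:93885200-93909430 and GCLC at chr6:53497341-53545101, both on the minus strand. GCLM in PC3 was at 10.5 and 10.9 FPKM in siControl, 11.2 and 9.97 after siLARP4A, and 13.5 and 12.5 after siLARP4B. In MG63 GCLM was at 24.6 and 25 FPKM in siControl, 17.1 and 17.4 after siLARP4A, and 30.5 and 30.3 after siLARP4B. The siLARP4B libraries were the highest of both lines, and in MG63 the siLARP4A libraries were the lowest, with no overlap. GCLM rose by 0.24 in PC3 (adjusted p 0.0032 by edgeR, SE 0.062) and by 0.32 in MG63 (adjusted p 9.2e-05 by edgeR, SE 0.055) after siLARP4B. After siLARP4A GCLM fell by 0.51 in MG63 (adjusted p 6.3e-07 by edgeR, SE 0.057), and its log2 fold change in PC3 was -0.02 (edgeR adjusted p 0.81). Upper-quartile scaling gave 0.01 there.

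GCLC did not pass the test after siLARP4B in either line. In PC3 it was at 16.0 and 14.7 FPKM in siControl and 14.3 in both siLARP4B libraries, a log2 fold change of -0.15 (edgeR adjusted p 0.092). In MG63, where all libraries lay between 2.80 and 3.25 FPKM, the groups overlapped and the log2 fold change was 0.06 (edgeR adjusted p 0.71). A fit on the libraries of the 2 PC3 groups alone called the PC3 fall, with edgeR adjusted p 0.038. After siLARP4A, GCLC was at 19.3 and 19.9 FPKM in PC3, a rise of 0.34 (adjusted p 2.7e-04 by edgeR, SE 0.066), and its MG63 value was 0.10 (edgeR adjusted p 0.54). In each of the 4 comparisons with siControl, 1 of the subunit genes was called and the other was not.

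NQO1, a quinone reductase often used as a readout of NRF2, lies at chr16:69709401-69726560 on the minus strand. In PC3 it was at 55.7 and 57.2 FPKM in siControl, 59.4 and 63.1 after siLARP4A, and 63.9 and 63.1 after siLARP4B. In MG63 it was at 60.3 and 62.4 FPKM in siControl, 81.8 and 83.3 after siLARP4A, and 84.8 and 80.6 after siLARP4B. In MG63 both siRNA groups stood above siControl by a wide gap and overlapped each other. After siLARP4B NQO1 rose by 0.46 in MG63 (adjusted p 2.1e-07 by edgeR, SE 0.049) and by 0.13 in PC3 (adjusted p 0.041 by edgeR, SE 0.050). The PC3 call was lost without a filter on low counts (edgeR adjusted p 0.085) and without PC3 siControl replicate 1, PC3 siLARP4B replicate 1 or any 1 of the 6 MG63 libraries (edgeR adjusted p 0.051 to 0.078). After siLARP4A NQO1 rose by 0.45 in MG63 (adjusted p 4.6e-07 by edgeR, SE 0.049), and its PC3 value was 0.11 (edgeR adjusted p 0.10). Without PC3 siLARP4A replicate 1 that value was 0.18 (edgeR adjusted p 0.012).

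TXNRD1 encodes cytosolic thioredoxin reductase, which keeps thioredoxin reduced with NADPH and is a selenoprotein. It lies at chr12:104287032-104350307 on the plus strand. Its PC3 level was 427 and 434 FPKM in siControl, 505 and 473 after siLARP4A, and 234 and 229 after siLARP4B. Its MG63 level was 75.5 and 76.1 FPKM in siControl, 101 and 99.4 after siLARP4A, and 48.2 and 48.5 after siLARP4B. In both lines the siLARP4A libraries were the highest and the siLARP4B libraries the lowest, with no overlap. TXNRD1 fell by 0.94 on the log2 scale in PC3 (adjusted p 4.0e-14 by edgeR, SE 0.040) and by 0.62 in MG63 (adjusted p 2.7e-10 by edgeR, SE 0.042) after siLARP4B. It was then at 53.8% and 63.8% of its siControl level. After siLARP4A it rose by 0.17 in PC3 (adjusted p 0.0015 by edgeR, SE 0.040) and by 0.42 in MG63 (adjusted p 9.1e-08 by edgeR, SE 0.041). Its 7 models gave log2 ratios after siLARP4B between -0.90 and -0.88 in PC3.

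SRXN1, sulfiredoxin, repairs over-oxidised peroxiredoxins and lies at chr20:646624-653200 on the minus strand. In PC3 it was at 52.9 and 50.9 FPKM in siControl, 65.9 and 68.6 after siLARP4A, and 56.5 and 55.8 after siLARP4B. In MG63 it was at 15.6 and 16.2 FPKM in siControl, 18.4 and 18.8 after siLARP4A, and 18.2 and 18.8 after siLARP4B. The siLARP4A libraries were above siControl in both lines, and in MG63 the siLARP4B libraries matched them. SRXN1 rose after siLARP4A by 0.36 in PC3 (adjusted p 6.8e-06 by edgeR, SE 0.051) and 0.24 in MG63 (adjusted p 0.005 by edgeR, SE 0.061). The MG63 call was lost without siControl replicate 1 (edgeR adjusted p 0.070) or siLARP4A replicate 2 (edgeR adjusted p 0.058). After siLARP4B it rose by 0.24 in MG63 (edgeR adjusted p 0.0033), and its PC3 value was 0.07 (edgeR adjusted p 0.27). With upper-quartile scaling the PC3 value was 0.15 (edgeR adjusted p 0.020).

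FTH1 and FTL encode the heavy and light chains of ferritin, whose translation is held back by iron regulatory proteins when iron is low. FTH1 lies at chr11:61964285-61967634 on the minus strand, and 1231 bases of its span are shared with BEST1 on the other strand. How strand was handled in the counting is not given in the sources used here, and the BEST1 model held 69.1% as many fragments as FTH1, so the 2 genes' reads cannot be told apart there. In PC3 FTH1 was at 7159 and 7132 FPKM in siControl, 6894 and 7314 after siLARP4A, and 6251 and 6419 after siLARP4B. The MG63 values were 677 and 697 FPKM in siControl, 959 and 910 after siLARP4A, and 721 and 707 after siLARP4B. After siLARP4B FTH1 fell by 0.22 in PC3 (adjusted p 9.8e-05 by edgeR, SE 0.039), and its MG63 value was 0.08 (edgeR adjusted p 0.11). With the deduplicated table of PC3 siControl replicate 2 the PC3 value turned to 0.28 (edgeR adjusted p 0.34). The other libraries were not deduplicated in that fit, so libraries counted in unlike ways were compared, and it cannot decide whether the call holds. After siLARP4A FTH1 rose by 0.46 in MG63 (adjusted p 1.3e-08 by edgeR, SE 0.040), and in PC3 it was at -0.02 (edgeR adjusted p 0.75), or 0.01 with upper-quartile scaling.

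FTL went from 815 and 818 FPKM in PC3 siControl to 1266 and 1237 after siLARP4A and to 948 and 938 after siLARP4B. In MG63 it was at 487 and 491 FPKM in siControl, 615 and 595 after siLARP4A, and 468 and 459 after siLARP4B. FTL rose after siLARP4A by 0.61 in PC3 (adjusted p 9.2e-11 by edgeR, SE 0.040) and 0.33 in MG63 (adjusted p 2.3e-06 by edgeR, SE 0.040). After siLARP4B it rose by 0.17 in PC3 (edgeR adjusted p 0.0016), and in MG63 it was at -0.05 (edgeR adjusted p 0.36). Both ferritin genes have processed copies elsewhere in the genome, and how reads with several matches were counted is not given in the sources used here.

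After siLARP4A, HMOX1 was higher by less, and the members around it had other calls in PC3 and, in part, in MG63. In MG63, NFE2L2, NQO1 and SRXN1 were called higher after either siRNA. In PC3, 5 of the 9 other members rose (GCLC, KEAP1, NFE2L2, SRXN1 and TXNRD1) and 0 fell, where 17.0% of all genes rose and 19.0% fell. In MG63, 5 rose (FTH1, NFE2L2, NQO1, SRXN1 and TXNRD1) and 1, GCLM, fell, beside 14.5% and 11.9% of all genes. Required in both lines, NFE2L2, SRXN1 and TXNRD1 rose, beside 7.60% of all genes, and 0 members fell, beside 7.12%. The median log2 fold change of the 9 was 0.19 in PC3 and 0.23 in MG63, beside 0.00 and 0.01 over all genes. The siLARP4A and siLARP4B comparisons of a line share its siControl libraries.

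Set directly against each other, without siControl, the siLARP4A and siLARP4B libraries differed for 8 of the 9 members in PC3 and 5 in MG63, where 54.2% and 43.6% of all genes tested differed. TXNRD1 exceeded its siLARP4B level after siLARP4A by 1.11 in PC3 (adjusted p 1.4e-15 by edgeR, SE 0.040) and 1.04 in MG63 (adjusted p 3.4e-14 by edgeR, SE 0.042). BACH1 was higher after siLARP4A by 0.78 and 0.65, KEAP1 by 0.76 and 0.35, and FTH1 by 0.20 and 0.38, in PC3 and MG63. GCLM was the member that was lower after siLARP4A in both lines, with log2 differences of -0.26 and -0.83. NFE2L2 (0.49), GCLC (0.49) and SRXN1 (0.29) were called in PC3, and their MG63 differences were 0.07, 0.04 and 0.00. NQO1 was called in neither line, with log2 differences of -0.02 (edgeR adjusted p 0.73) and -0.01 (edgeR adjusted p 0.89). HMOX1 was at 17.7 to 17.9 against 49.4 to 50.9 FPKM in PC3, and at 7.31 to 7.70 against 26.4 to 27.0 FPKM in MG63. The FTH1 call in PC3 was lost with the deduplicated table (edgeR adjusted p 0.49).

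The effect of siLARP4B differed between the lines for 4 of the 9 members, beside 27.9% of all genes. All 4 were lower in PC3 relative to MG63: NFE2L2 by a log2 difference of -0.44 (adjusted p 6.3e-04 by edgeR, SE 0.087), NQO1 by -0.33, TXNRD1 by -0.32 and FTH1 by -0.30. For BACH1 the difference was 0.14 (adjusted p 0.50 by edgeR, SE 0.144), for KEAP1 -0.17 (adjusted p 0.12 by edgeR, SE 0.081) and for GCLM -0.08 (adjusted p 0.52 by edgeR, SE 0.083). HMOX1 had a difference of -0.28 (SE 0.121). The effect of siLARP4A differed for 5 of the 9 members, beside 11.4% of all genes. GCLM (0.48) and KEAP1 (0.24) were higher in PC3 relative to MG63, and FTH1 (-0.48), NQO1 (-0.34) and TXNRD1 (-0.25) lower. The KEAP1 difference after siLARP4A was near the threshold (edgeR adjusted p 0.047) and was lost without PC3 siControl replicate 2 (edgeR adjusted p 0.12) or any 1 of the 4 MG63 siControl and siLARP4A libraries (edgeR adjusted p 0.079 to 0.16). The TXNRD1 difference after siLARP4A was lost without either PC3 siControl library or PC3 siLARP4A replicate 2 (edgeR adjusted p 0.061 to 0.073). With the deduplicated table, the KEAP1 difference after siLARP4A (edgeR adjusted p 0.082), the TXNRD1 differences (edgeR adjusted p 0.36 for siLARP4A and 0.095 for siLARP4B) and the FTH1 differences (edgeR adjusted p 1.00 and 0.71) were not called. Without PC3 siLARP4A replicate 2, BACH1 was called for siLARP4A at 0.40 (edgeR adjusted p 0.043).

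Other NRF2 targets were read from a list of 35 genes, of which 32 were tested. GPX2 and NR0B1 had too few fragments, and ABCC1 was not used because its symbol was not at a single locus. After siLARP4B, 9 rose and 9 fell in PC3 (28.1% each), with a median log2 fold change of -0.03. In MG63, 10 rose (31.2%) and 7 fell (21.9%), with a median of 0.02. TRIM16 alone rose in both lines, 2 fell in both (ME1 and ALDH3A1), and 6 had opposite calls. After siLARP4A, 15 rose (46.9%) and 8 fell (25%) in PC3, with a median of 0.15, and 17 rose (53.1%) and 2 fell (6.25%) in MG63, with a median of 0.23. In all, 12 rose in both lines after siLARP4A (37.5%), beside 7.60% of all genes, and 1, PGD, fell in both. Over all genes tested, 21.3% rose and 23.4% fell in PC3 and 18.8% and 16.3% in MG63 after siLARP4B. After siLARP4A these shares were 17.0% and 19.0%, and 14.5% and 11.9%.

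**Figure D4:**
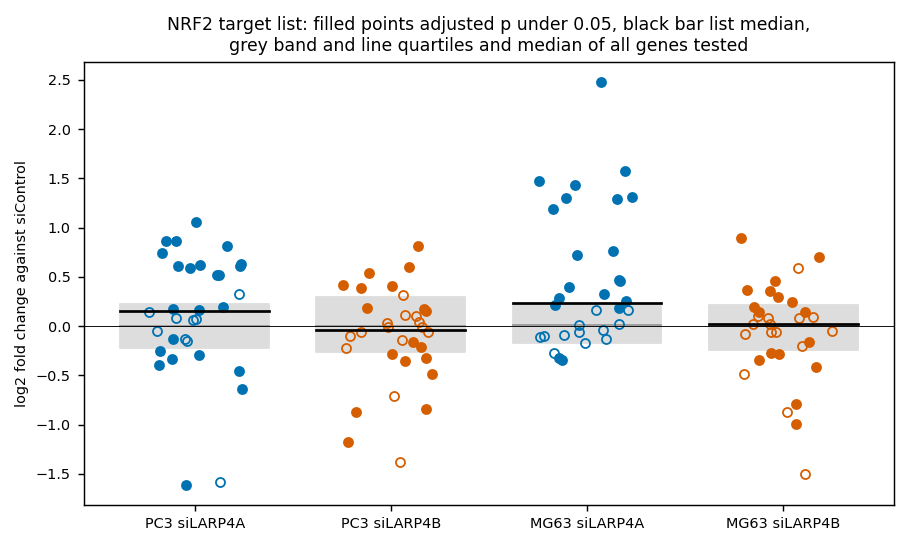
Log2 fold change against siControl of the 32 tested genes of the NRF2 target list in the 4 comparisons (1 point per gene, filled where the edgeR adjusted p is under 0.05, black bar at the list median), with the quartiles and median of all 15668 genes as a grey band and line. The list median stands at 0.15 and 0.23 after siLARP4A and at -0.03 and 0.02 after siLARP4B.

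Among these targets, SLC7A11, the cystine importer that feeds glutathione synthesis, was at 9.25 and 9.94 FPKM in PC3 siControl, 16.0 and 13.3 after siLARP4A, and 5.42 and 5.6 after siLARP4B. In MG63 SLC7A11 was at 4.74 and 5.10 FPKM in siControl, 13.4 and 12.8 after siLARP4A, and 5.35 and 6.07 after siLARP4B. It rose after siLARP4A in both lines, by 0.61 and 1.43, and after siLARP4B it fell by 0.84 in PC3 (edgeR adjusted p 1.0e-08) and rose by 0.24 in MG63 (edgeR adjusted p 0.025). ME1, the NADPH-forming malic enzyme, fell after siLARP4B by 0.87 in PC3 and 0.34 in MG63, as did the aldehyde dehydrogenase ALDH3A1, by 1.18 and 0.99. Both also fell in PC3 after siLARP4A, ALDH3A1 by more (log2 fold change -1.61) and ME1 by less (-0.40). OSGIN1 rose by 0.86 and 0.76 after siLARP4A, and by 0.60 in PC3 after siLARP4B. ABCC3, an export pump, moved oppositely in the 2 lines under each siRNA: after siLARP4A by -0.46 in PC3 and 1.30 in MG63, and after siLARP4B by 0.81 and -0.79. AKR1C1 rose by 0.86 and HTATIP2 by 0.59 in PC3 after siLARP4A, and by 1.29 and 1.58 in MG63, where both were at a group mean of 1.49 FPKM or less. AKR1C1 to AKR1C3 and TRIM16 and TRIM16L are close copies, so their fragments may be split between them.

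A list of 7 further genes described as repressed by BACH1 overlaps the NRF2 and iron lists. After siLARP4B, 5 of the 7 rose (71.4%) and 2 fell (28.6%) in PC3, beside 21.3% and 23.4% of all genes, with a median log2 fold change of 0.17. In MG63, 1 rose (14.3%) and 2 fell (28.6%), beside 18.8% and 16.3%, with a median of -0.05. Of the 7, 0 rose in both lines, beside 7.49% of all genes. In PC3 the risers were FTL (0.17), SQSTM1 (0.15), MAFG (0.27), the haem transporter gene SLC48A1 (0.39) and SLC40A1, the iron exporter ferroportin (1.54, SE 0.388, at a mean of 0.511 FPKM). In MG63 the riser was SLC7A11, and SQSTM1, an autophagy receptor that binds KEAP1, fell by 0.42. SQSTM1 was at 200 and 205 FPKM in MG63 siControl and 148 and 149 after siLARP4B. After siLARP4A, 4 of the 7 rose in both lines (FTL, SLC7A11, SQSTM1 and MAFG, 57.1% beside 7.60% of all genes), with medians of 0.61 in PC3, where 1, ME1, fell, and 0.32 in MG63, where 0 fell.

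Of 17 regulators and partners of NRF2, all tested, 5 rose (29.4%) and 8 fell (47.1%) in PC3 after siLARP4B, beside 21.3% and 23.4% of all genes, with a median of -0.16. In MG63, 2 rose (11.8%) and 4 fell (23.5%), beside 18.8% and 16.3%, with a median of -0.04, so the MG63 shares lay near those of all genes. BTRC, an adaptor of a KEAP1-independent ubiquitin ligase for NRF2, fell by 0.80 and 0.48, and AMER1, a scaffold that binds KEAP1, fell by 0.83 and 0.31. RBX1, the RING subunit of the CUL3 ligase, fell by 0.42 and 0.28. The related factor NFE2L3 rose in PC3 by 0.24 and in MG63 by 0.81, and NFE2L1 by 0.12 and 0.15. After siLARP4A, 8 rose (47.1%) and 2 fell (11.8%) in PC3, beside 17.0% and 19.0%, and 9 rose (52.9%) and 0 fell in MG63, beside 14.5% and 11.9%, with medians of 0.16 and 0.27. BTRC rose there, by 0.42 and 0.53. Of the small MAF partners, MAFG rose with siLARP4A, by 0.78 in PC3 and by 0.32 in MG63. MAFK rose by 0.32 after siLARP4B in PC3, and MAFF by 0.29 after siLARP4A in MG63.

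Haem and iron genes other than HMOX1 and FTH1 were read from a list of 28, of which 27 were tested. HMOX2, the constitutive haem oxygenase, was not used because its symbol was not at a single locus. After siLARP4B, 12 rose (44.4%) and 4 fell (14.8%) in PC3, beside 21.3% and 23.4% of all genes, with a median of 0.12. In MG63, 9 rose (33.3%) and 5 fell (18.5%), beside 18.8% and 16.3%, with a median of 0.13. In all, 4 rose in both lines (ACO1, SLC11A2, UROS and POR), which is 14.8% beside 7.49% of all genes. POR, the reductase that passes electrons from NADPH to haem oxygenase and cytochromes P450, rose by 0.52 in PC3 and 0.47 in MG63. It was at 43.6 and 44.1 FPKM in PC3 siControl and 67.0 and 62.3 after siLARP4B, and at 14.4 and 13.4 against 20.6 and 17.2 FPKM in MG63. SLC11A2, an iron importer, rose by 0.34 and 0.55. Of the FLVCR transporter genes, FLVCR1 fell by 0.62 and FLVCR2 rose by 0.55 in PC3, and neither passed the test in MG63. PCBP1 and PCBP2, whose proteins bind RNA and carry iron to ferritin, fell in both lines, by 0.45 and 0.13 and by 0.33 and 0.21.

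BLVRA and BLVRB, which reduce the biliverdin made by haem oxygenase, did not pass the test after siLARP4B, with log2 fold changes of -0.05 to 0.15. BLVRB rose by 0.62 in PC3 and by 0.26 in MG63 with siLARP4A. TFRC, the transferrin receptor, was at 124 and 127 FPKM in PC3 siControl and 130 and 132 after siLARP4B, with a log2 fold change of 0.02 (edgeR adjusted p 0.83). MG63 libraries gave 33.5 and 35.5 FPKM in siControl and 55 and 62.1 after siLARP4B, a rise of 0.79 (adjusted p 5.6e-10 by edgeR, SE 0.057). This difference between the lines was called, at -0.77 on the log2 scale (adjusted p 2.0e-07 by edgeR, SE 0.078). In MG63 after siLARP4B, ALAS1 (0.43) and CPOX (0.46), enzymes of haem synthesis, also rose. Other genes of haem synthesis did not all move with them. UROS rose in both lines, and in MG63 its mean was 12.8 FPKM in siControl and 15.7 after siLARP4B. PPOX fell in MG63, from a mean of 8.91 to 6.38 FPKM, and rose in PC3, and UROD in MG63 was at a mean of 35.4 FPKM against 36.5 in siControl. After siLARP4A, PPOX, UROD and ALAD, enzymes of haem synthesis, fell in both lines, and over the whole list 8 rose (29.6%) and 4 fell (14.8%) in PC3 and 5 rose (18.5%) and 4 fell (14.8%) in MG63. The shares over all genes were 17.0% and 19.0% in PC3 and 14.5% and 11.9% in MG63.

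**Figure D5:**
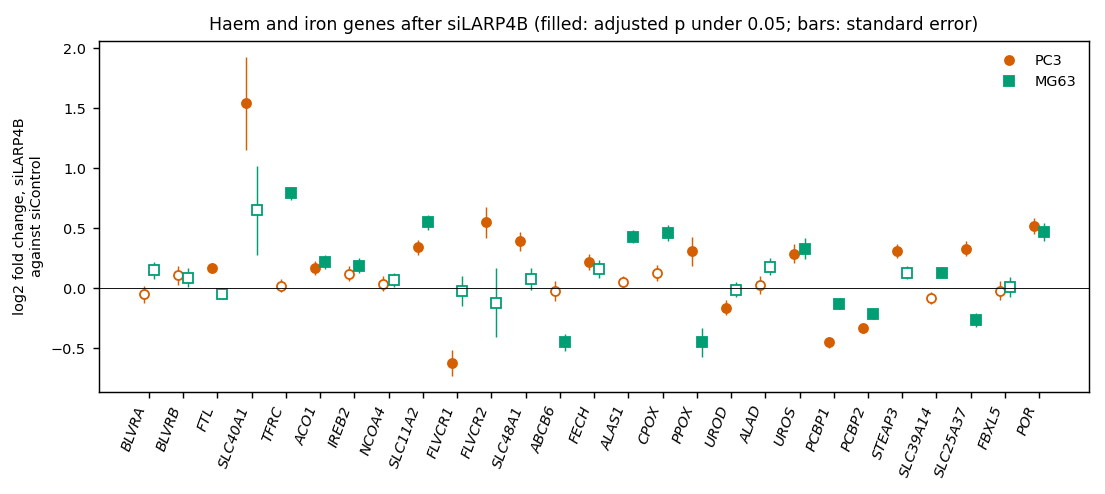
Log2 fold change after siLARP4B against siControl of the 27 tested haem and iron genes in PC3 (circles) and MG63 (squares), filled where the edgeR adjusted p is under 0.05, with standard errors as bars. POR and SLC11A2 are higher in both lines and PCBP1 and PCBP2 lower, while TFRC stands at 0.79 in MG63 and 0.02 in PC3.

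Heat shock, metal response and ATF4 stress genes, of other routes known to raise HMOX1, were read from further lists, as were glutathione and antioxidant genes. The glutathione and antioxidant list shares TXN, PRDX1 and GSR with the NRF2 target list, and CHAC1 and SESN2 with the ATF4 list. Over all genes, the shares that rose and fell after siLARP4B were 21.3% and 23.4% in PC3 and 18.8% and 16.3% in MG63. Of 11 heat shock genes tested, 3 rose and 3 fell in PC3 (27.3% each, near those shares), and 9 rose (81.8%) and 0 fell in MG63, where the median was 0.29. HSPH1 (0.78) and HSPD1 (0.59) rose most in MG63, and HSPA1A and HSPA1B were not used because their symbols were not at a single locus. Of 7 metal response genes tested, 5 rose (71.4%) and 0 fell in PC3 after siLARP4B, with MT1F at 1.04, and 2 rose and 2 fell in MG63 (28.6% each). Some of the 7 were near the floor in PC3, so that share rests partly on few fragments. MT1F held 11 and 16 fragments in PC3 siControl and 28 in each siLARP4B library. MT1M held 0 in both siControl libraries and 1 and 3 after siLARP4B, and MT1E held 0 in every PC3 library. The zinc sensor MTF1 (0.38 and 0.42) and the zinc exporter SLC30A1 (0.37 and 0.33) rose in both lines, and they also rose in both after siLARP4A. Of 11 genes of the ATF4 stress response, 6 rose (54.5%) and 1, VLDLR, fell (by 1.01) in PC3 and 3 rose and 3 fell in MG63 (27.3% each) after siLARP4B. After siLARP4A, 6 rose (54.5%) and 3 fell (27.3%) in PC3, beside 17.0% and 19.0% of all genes, and 8 rose (72.7%) and 0 fell in MG63, beside 14.5% and 11.9%. Of 26 glutathione and antioxidant genes, 10 rose (38.5%) and 9 fell (34.6%) in PC3 and 11 rose (42.3%) and 4 fell (15.4%) in MG63 after siLARP4B. SESN3, a sestrin, rose by 1.01 in PC3. CHAC1, which degrades glutathione, rose by 0.68 and 1.04, and catalase (CAT) fell by 0.58 and 0.41. The fall of CAT and the MG63 rise of CHAC1 were not particular to siLARP4B. After siLARP4A CHAC1 rose by 2.36 in MG63, and CAT fell in both lines. In PC3 the CHAC1 group means were 5.2 FPKM in siControl, 5.34 after siLARP4A and 8.59 after siLARP4B.

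The genes whose pattern was most like that of HMOX1 were ranked by Pearson's r over the 12 libraries after each line's mean was removed, among 9846 genes. The libraries of a group share their siRNA, so r describes group differences, and it is given with no test. The 5 highest were TBC1D16 (0.992), HECTD3 (0.985), E2F5 (0.982), UBE2Q1 (0.981) and EFCAB14 (0.980), and none of them is in the lists above. TBC1D16 was at a mean of 11.9 FPKM in PC3 siControl, 13.7 after siLARP4A and 19.5 after siLARP4B, and at 7.48, 8.54 and 12.5 FPKM in MG63. Its log2 fold changes after siLARP4B were 0.67 and 0.77, smaller than those of HMOX1. Among the other members, r with HMOX1 was 0.666 for GCLM, 0.636 for NQO1 and 0.265 for SRXN1, and -0.899 for BACH1, -0.870 for TXNRD1 and -0.760 for KEAP1. GCLC (-0.289), NFE2L2 (-0.340) and FTH1 (-0.397) lay between. Of all genes tested, 54.2% in PC3 and 43.6% in MG63 differed between siLARP4A and siLARP4B. The spread of r over all genes is not given here, so whether a member's r is unusual cannot be read from these values.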

How the data were processed

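Poly(A) RNA of 12 libraries was analysed from 1 deposited table per library, with 86394 transcript models. Per the file headers, each holds a fragment count, an FPM signal (fragments scaled to the library total, not used in the tests) and an FPKM per model. The authors' deposited counts are whole numbers, and their FPKM values are scaled to library total and model length. The submitters' processing notes name FastQC, HISAT2, featureCounts and edgeR and the build hg38; versions and the handling of strand are not given in the sources used here. Models on chromosomes 1 to 22 and X were kept, 1748 symbols at more than 1 locus (1295 of them with models on other sequences) were left out, and the model with the most fragments stood for each of 26415 symbols. A further unnamed column in 3 tables was not used.

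Counts were fitted in edgeR 4.0.16 (quasi-likelihood, TMM, filterByExpr, 15668 genes) with 6 group means over the 12 libraries, and p-values were adjusted by Benjamini-Hochberg over all genes. Alternatives used DESeq2 1.42.0, limma 3.58.1 on log2(FPKM + 1) or log2(FPKM + 0.1), other scalings and filters, the mean over models, a replicate block, the deduplicated table of PC3 siControl replicate 2, and each library left out. In the alternative with the deduplicated table, the other libraries were not deduplicated. The members and gene lists were chosen with earlier results of these data known. Named besides the members were FTL, HMOX2, BLVRA, BLVRB, SLC40A1, TFRC, SLC7A11, the small MAF genes, both targets and the 5 genes most like HMOX1. The rule also allowed up to 3 further genes per list and comparison by size of change, of which some are named. Other names were added after their values were seen, and 1 gene of the haem and iron list is not reported here. Common dispersion was 0.00177. Precision is set by 2 libraries a group and 16950119 to 24864977 fragments a library.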

Additional observations from a re-analysis of the deposited data

Results flagged for a closer look

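The effect of an siRNA differed between the lines, by the edgeR interaction test, for 9 pairs of member and siRNA. The values are log2 effects in PC3 minus those in MG63. For siLARP4A they were 0.24 for KEAP1, -0.34 for NQO1, 0.48 for GCLM, -0.25 for TXNRD1 and -0.48 for FTH1. For siLARP4B they were -0.44 for NFE2L2, -0.33 for NQO1, -0.32 for TXNRD1 and -0.30 for FTH1. Effects called in both lines with opposite signs were those of NFE2L2 after siLARP4B (-0.28 in PC3, 0.15 in MG63). The MG63 call held in 6 of 22 alternatives (highest adjusted p 0.26), and the PC3 call was lost without PC3 siLARP4B replicate 1. TXNRD1 moved the same way in both lines under each siRNA, and its effects differed in size. GCLM after siLARP4A was at -0.02 in PC3 and -0.51 in MG63. Groups of 2 libraries allow no check for single stray samples.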

How the results depend on the processing

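After siLARP4B, the falls of BACH1, KEAP1 and TXNRD1 and the rise of GCLM kept their call under all 23 alternatives in PC3 and all 22 in MG63, with a highest adjusted p of 0.034 (GCLM in PC3). HMOX1 stayed between 1.99 and 2.12 in PC3 and between 2.10 and 2.45 in MG63. With the deduplicated table of PC3 siControl replicate 2, FTH1 turned to 0.48 and 0.28 in PC3 after siLARP4A and siLARP4B, and to 0.02 and 0.20 in the differences between lines. With that table, 2 members in place of 5 differed between lines for siLARP4A, and 2 in place of 4 for siLARP4B. In that alternative the other libraries were not deduplicated, so libraries counted in unlike ways were compared. The cause was not tested.

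Other reversals were of uncalled values. Under upper-quartile scaling they were GCLM (0.01) and FTH1 (0.01) in PC3 after siLARP4A, NQO1 (0.02) and SRXN1 (0.03) between the siRNAs in MG63, and GCLM (0.02) in the siLARP4B difference between lines. Under the filter at 5 FPKM they were FTH1 (0.00), NQO1 (0.04) and SRXN1 (0.05). With limma SRXN1 was 0.01 at both pseudocounts. NFE2L2 in the siLARP4A difference was 0.00 with limma, 0.02 in the fit on the contrast's libraries and 0.04 over models, where FTH1 in PC3 was 0.00.

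With each library left out, genes called after siLARP4A ran from 2698 to 4759 in MG63 (4138 with all libraries) and from 1049 to 2034 for the difference between lines (1784), and members called there from 3 to 5. The lowest counts came without either MG63 siControl library. Values that changed sign were GCLM (-0.09 to 0.08) and FTH1 (-0.03 to 0.05) after siLARP4A in PC3, and GCLC (-0.01 to 0.20) and BACH1 (-0.23 to 0.04) in MG63. They were also GCLC after siLARP4B in MG63 (-0.05 to 0.16) and NQO1 between the siRNAs in PC3 (-0.07 to 0.01). In MG63 they were NQO1 (-0.05 to 0.02), SRXN1 (-0.03 to 0.02) and GCLC (-0.03 to 0.11) between the siRNAs, and in the differences between lines NFE2L2 for siLARP4A (-0.05 to 0.07) and GCLM for siLARP4B (-0.09 to 0.01).

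The samples share only a replicate number: deviations of same-numbered libraries correlated at -0.07 to 0.07. With a replicate block, genes called were 6867 in place of 6997 in PC3 and 5328 in place of 5497 in MG63 after siLARP4B. The calls lost were NQO1 in PC3 (0.13, adjusted p 0.059), NFE2L2 in MG63 (0.15, adjusted p 0.066) and the KEAP1 difference between lines for siLARP4A (0.25, adjusted p 0.052). Depth limits HMOX1 most in MG63 siControl, at 168 and 147 fragments.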
